A study of Rattus norvegicus with 12 samples.

Results

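Transcripts of 42 genes of the unfolded protein response and of ATF4-driven amino acid metabolism were followed in rat HPCs (hepatic progenitor cells), from which hepatocytes and bile duct cells can develop. The 42 symbols were taken from a prepared gene list and looked up in the deposited table of 22384 lines with a symbol. All 42 were found, and all 42 were among the 11860 lines with a mean FPKM (fragments per length of transcript, scaled to the library) of at least 1 that were tested. They comprise 8 stress sensors and transcription factors, 6 stress effectors downstream of ATF4, 10 genes of amino acid synthesis and uptake, 14 chaperones and folding enzymes of the endoplasmic reticulum (ER) and 4 genes of ER-associated degradation (ERAD). RNA-seq had been done on 12 libraries in 6 groups of 2, all labelled as cells of gestation day 13.5. The groups were wild type, Tnfrsf1α-/- and Tnfrsf1β-/-, each of them either left untreated or exposed for 1 hour to TNFα (tumour necrosis factor alpha). The labels name the 2 TNF receptor genes, and they do not give the kind of allele, the number of clones or animals, or the dose of TNFα. No separate cultures or animals are named for the libraries of a group, so p-values here reflect how far the libraries of a group lay apart, which may be a technical spread. How many reads stand behind a library is unknown because the values are FPKM, and no counting interval can be given.

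When unfolded proteins build up in the ER, the sensors ATF6, IRE1 (gene Ern1) and PERK (gene Eif2ak3) switch on a common response. ATF6 and spliced XBP1 raise the genes of chaperones and of ERAD, whereas PERK and related kinases phosphorylate eIF2α, which slows translation in general and favours that of ATF4. ATF4, also activated by lack of amino acids, raises genes that make serine, glycine and asparagine, genes that import amino acids, and stress effectors such as CHOP (gene Ddit3). The liver secretes much protein and relies on both branches. The comparison made here sets the chaperone branch against the amino acid branch over genotype and treatment.

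Several properties of the libraries bear on every value below. The receptor gene Tnfrsf1a was not lower under the label Tnfrsf1α-/- (5.65 to 6.13 on the log2(FPKM + 1) scale used throughout, against 5.15 to 5.65 in wild type). Tnfrsf1b was listed at 0 in untreated wild type as well as in the 4 libraries labelled Tnfrsf1β-/-. It was at 2.58 and 2.43 in TNFα-treated wild type. In treated Tnfrsf1α-/- it was at 0 in replicate 1 and 4.09 in replicate 2, and untreated Tnfrsf1α-/- held at most 0.03. Both names are therefore used as labels only: a Tnfrsf1α-/- library below is one labelled so, and any direction drawn from it rests on that label. The 2 TNFα-treated wild-type libraries stood apart in their cell type markers. The summed level of 8 hepatocyte markers was 66.4 to 66.7 there and 3.62 to 5.66 in the other 10 libraries, 9 mesenchymal markers summed to 19.0 to 19.2 against 47.7 to 60.0, and 11 progenitor markers to 64.1 to 64.3 against 15.3 to 32.1. Not every mesenchymal marker was lower there. Dcn was at 8.16 and 7.72 against at most 7.56 elsewhere, and Col1a1 at 7.98 and 7.82, within the 6.14 to 10.62 of the other libraries. Acta2 was at 8.55 and 0.26 in treated Tnfrsf1α-/- replicates 1 and 2. In the other 10 libraries the progenitor markers Epcam, Krt19, Afp, Krt18 and Cd24 were at or near 0 (at most 0.46). Krt8 was at 6.26 to 8.62 in those libraries, except for 0.62 in treated Tnfrsf1α-/- replicate 2. Krt7 was at 13.5 to 15.11 in 6 of them and at 7.64 to 7.99 in the 4 untreated libraries with a knockout label. Sox9 was split likewise, at 5.21 to 9.67 in the same 6 and at 0.02 to 0.31 in the same 4. Spp1 was at 6.12 in treated Tnfrsf1α-/- replicate 2 and at most at 0.07 in the other 11 libraries. Endothelial markers (5 genes, summed level 0.01 to 2.44) and erythroid markers (3 genes, 0.11 to 2.31) were low in every library. The endothelial marker Tek was at 2.26 to 2.39 in the 4 untreated libraries with a knockout label. It was at most at 0.52 in the other 8. The macrophage list (6 genes, 4.91 to 7.87) held Ptprc, Adgre1 and C1qa at 0 and Cd14 at 3.67 to 5.65 in every library. Cd68 was at 4.09 in treated Tnfrsf1α-/- replicate 2 against at most 0.87 elsewhere. The 4 untreated libraries with a knockout label had total FPKM of 447554 to 472935, against 1071530 to 2085916 in the other 8. The replicates of TNFα-treated Tnfrsf1α-/- had a Spearman correlation of 0.782 over the 11860 genes, against 0.961 to 0.996 in the other groups, and 1231 genes differed between them by more than 2. Whether cell makeup, scaling or these replicates set any member's difference was not tested. In these bulk libraries fewer cells of a type and less RNA per cell cannot be told apart.

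The promoters of the members were searched for the elements known to carry these branches, and a few are shown because members with the same element are described with different levels below. RefSeq promoters (assembly GRCr8, 250 bases before to 50 after the start) were at hand for 36 of the 42 members, not for Atf6, Ern1, Pdia3, Pdia6, Manf and Slc1a5. The ER stress element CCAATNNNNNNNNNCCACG, searched on both strands, was in 22 of 33469 promoters (0.0657%), and 7 of those were members: the chaperone genes Hspa5, Hsp90b1, Creld2, Canx, Dnajc3 and Calr, and Xbp1. The following stretches are printed 5′ to 3′ in the direction of the gene, with matches to the element in capitals. Hspa5 lies on the plus strand at chr3:38452766-38453065, Hsp90b1 on the minus strand at chr7:23012244-23012543 and Creld2 on the plus strand at chr7:121789134-121789433. In Hsp90b1 there is 1 match on each strand, and in Creld2 the match is on the opposite strand, where it reads as its reverse complement.
Hspa5: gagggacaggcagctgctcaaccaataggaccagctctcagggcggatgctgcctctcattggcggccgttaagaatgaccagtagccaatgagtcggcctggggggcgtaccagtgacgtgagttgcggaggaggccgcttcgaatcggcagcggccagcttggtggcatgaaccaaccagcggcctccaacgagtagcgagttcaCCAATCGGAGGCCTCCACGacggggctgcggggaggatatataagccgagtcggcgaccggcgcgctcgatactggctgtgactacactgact
Hsp90b1: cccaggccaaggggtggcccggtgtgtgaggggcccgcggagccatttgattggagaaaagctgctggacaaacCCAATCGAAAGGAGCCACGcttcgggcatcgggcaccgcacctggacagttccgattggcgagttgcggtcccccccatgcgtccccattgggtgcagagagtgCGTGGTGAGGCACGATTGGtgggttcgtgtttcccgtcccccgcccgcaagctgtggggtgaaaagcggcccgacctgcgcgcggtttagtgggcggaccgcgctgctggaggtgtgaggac
Creld2: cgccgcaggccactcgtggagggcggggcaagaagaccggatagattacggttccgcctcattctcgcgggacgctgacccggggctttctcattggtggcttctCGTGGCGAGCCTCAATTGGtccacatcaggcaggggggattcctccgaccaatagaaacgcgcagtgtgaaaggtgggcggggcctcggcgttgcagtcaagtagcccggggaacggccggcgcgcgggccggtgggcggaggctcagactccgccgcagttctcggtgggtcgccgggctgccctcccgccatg
The core TGATGNAA of the C/EBP-ATF composite site, to which ATF4 and CHOP bind with C/EBP partners, was in 1332 promoters (3.98%) and in 4 of the 36 members, Trib3, Chac1, Slc7a1 and Herpud1. The promoters of Trib3 (minus strand, chr3:161275484-161275783) and Chac1 (plus strand, chr3:126795881-126796180) are shown with the core in capitals, in both on the strand opposite to the gene.
Trib3: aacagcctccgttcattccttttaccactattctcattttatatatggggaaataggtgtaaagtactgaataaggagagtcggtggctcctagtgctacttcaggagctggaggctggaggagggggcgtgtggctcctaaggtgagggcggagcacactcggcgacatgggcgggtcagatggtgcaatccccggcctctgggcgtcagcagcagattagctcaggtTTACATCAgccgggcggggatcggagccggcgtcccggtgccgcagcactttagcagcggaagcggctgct
Chac1: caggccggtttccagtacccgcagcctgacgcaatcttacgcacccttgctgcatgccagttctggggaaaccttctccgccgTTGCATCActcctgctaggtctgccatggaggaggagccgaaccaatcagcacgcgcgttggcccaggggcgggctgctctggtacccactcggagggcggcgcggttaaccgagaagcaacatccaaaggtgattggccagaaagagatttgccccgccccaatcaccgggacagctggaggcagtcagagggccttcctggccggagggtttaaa
The core TGACGTGG bound by XBP1 and ATF6 was in 199 promoters (0.59%) and in 1 member, Hyou1. A match is a description of the letters in these windows and not an occupied site.

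Over the 6 groups the chaperone genes and the amino acid genes did not keep a constant distance. The median level of the 14 chaperone genes ranged from 6.31 to 7.89 over the 12 libraries, whereas that of the 10 amino acid genes ranged from 4.19 to 7.07. In wild type the amino acid median was 5.39 and 4.86 without TNFα and 7.04 and 7.07 with it, beside chaperone medians of 7.2 and 6.93 without and 7.46 and 7.37 with TNFα. The gap between them, chaperone minus amino acid median per library, was 1.94 ± 0.18 (SD, n = 2) in untreated wild type and 0.36 ± 0.08 with TNFα. Both treated wild-type libraries thus had a smaller gap than both untreated ones, and the change of -1.58 lay between -1.71 and -1.46 when any library was left out. Untreated Tnfrsf1α-/- libraries had a gap of 0.97 ± 0.14, also below that of untreated wild type. Under the label Tnfrsf1β-/- the gap was 2.08 ± 0.04 without and 2.09 ± 0.05 with TNFα. TNFα-treated Tnfrsf1α-/- gave 1.93 ± 1.54, from 0.84 in replicate 1 and 3.02 in replicate 2, so its mean describes neither library. As a score over chosen members, the gap was given no test, and its change under the label Tnfrsf1β-/- took the opposite sign (-1.19) after quantile normalization.

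**Figure D1:**
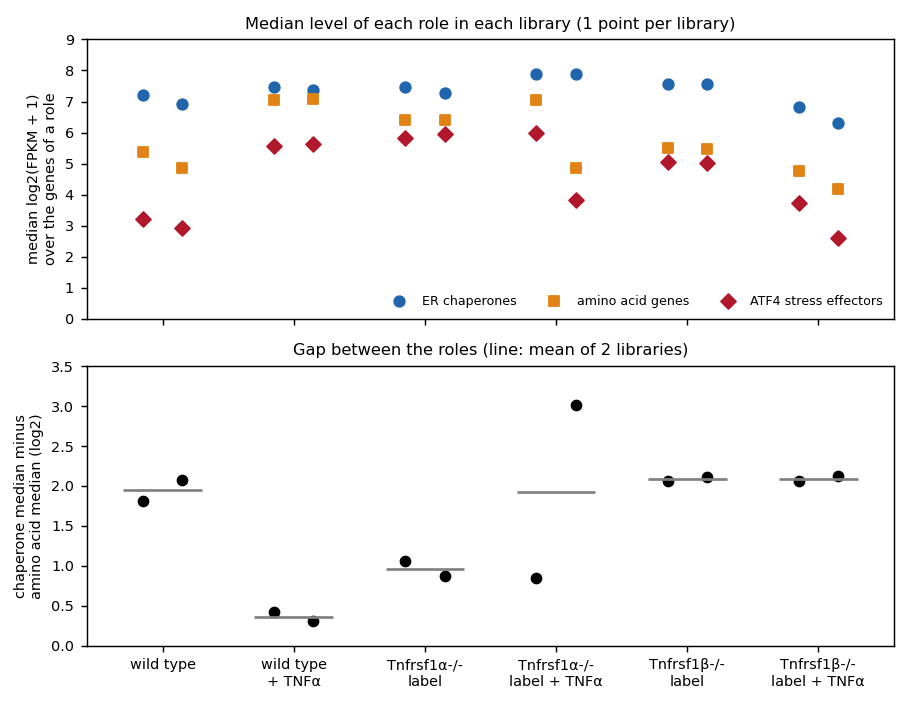
Median level (log2(FPKM + 1)) of ER chaperone genes, amino acid genes and ATF4 stress effectors in each of the 12 libraries (top, 1 point a library), and the chaperone minus amino acid gap (bottom, line: mean of 2 libraries). The gap is smallest in TNFα-treated wild type (0.36) and its 2 replicates differ most under the label Tnfrsf1α-/- with TNFα (0.84 and 3.02).

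**Figure D2:**
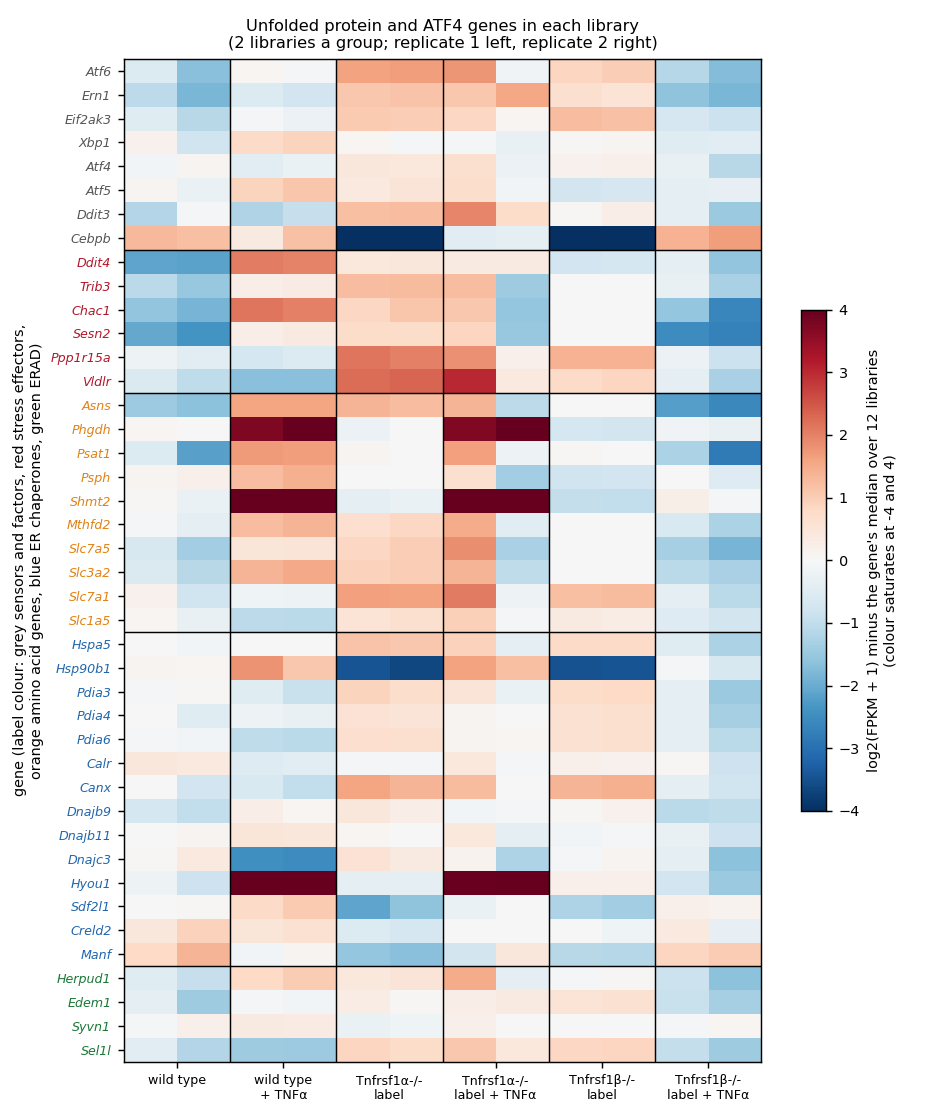
Level of each of the 42 genes in each library, as log2(FPKM + 1) minus that gene's median over the 12 libraries, grouped by role; the colour saturates at -4 and 4. Phgdh, Shmt2 and Hyou1 are high in all 4 TNFα-treated wild-type and Tnfrsf1α-/- libraries, and Cebpb and Hsp90b1 are low in all 4 untreated libraries with a knockout label.

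In wild type with TNFα, 6 of 10 amino acid genes and 3 of 6 stress effectors rose, while chaperone genes moved both ways. With limma (adjusted p under 0.05 over all genes), 16 members rose and 5 fell, or 38.1% and 11.9% of the 42, where 31.9% of all tested genes rose and 15.3% fell. The median difference was 0.79 over the members and 0.32 over all genes. By role, 1 amino acid gene fell (median of the 10, 1.91), no effector fell (median 2.06), and 4 of 14 chaperone genes rose and 4 fell (median -0.07). Of the sensors and factors 2 of 8 rose, and of the ERAD genes 1 of 4. With median-ratio scaling there were 12 calls higher and 8 lower, where 22.5% and 23.1% of all tested genes were called. With quantile normalization there were 8 and 8, where the shares were 20.4% and 24.3%. Either scaling removed the shift of all genes, and then 5 or 4 amino acid genes rose and 1 fell, against 3 or 1 chaperone genes that rose and 5 that fell. Without wild-type replicate 2 or either treated replicate fewer members were called, as were fewer of all tested genes. The TNFα-treated Tnfrsf1α-/- libraries are outside this comparison but share its estimate of the spread. Without either of them more members and more of all tested genes were called. Without both, 40.9% of all tested genes were called higher and 23.5% lower.

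ATF4 itself was not among the genes called. Atf4, the factor that gives this branch its name, was at 7.70 and 7.91 in untreated wild type and at 7.37 and 7.54 with TNFα (difference -0.35, SE 0.33, limma adjusted p = 0.406). Ddit3, which encodes the pro-apoptotic factor CHOP, was at 3.89 and 4.99 without TNFα and at 3.84 and 4.12 with it (-0.46, SE 0.52, adjusted p = 0.491). Neither gene passed against the spread shared by all 6 groups. The Ddit3 groups overlapped, and the Atf4 groups did not. The SDs of Atf4 were 0.15 and 0.11 in untreated and treated wild type, against 0.62 and 0.59 in treated Tnfrsf1α-/- and Tnfrsf1β-/-. Atf5, a relative of ATF4 that is also controlled at translation, rose from 6.96 and 6.59 to 7.75 and 7.97 (1.08, SE 0.26, adjusted p = 0.00919), a call lost without wild-type replicate 2 (adjusted p = 0.0601) or treated replicate 2 (0.0645) and under both other scalings. Xbp1, whose mRNA IRE1 splices, rose from 6.67 and 5.70 to 7.26 and 7.37 (1.13, SE 0.29, adjusted p = 0.0115), a call lost without either treated replicate (0.0522 and 0.0678) and after quantile normalization. FPKM per gene does not separate spliced from unspliced Xbp1. The sensor genes Atf6 (1.12), Ern1 (0.78) and Eif2ak3 (0.65) and the factor gene Cebpb (-0.50) did not pass.

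Among the effectors, Ddit4, which encodes the mTORC1 inhibitor REDD1, was at 2.32 and 2.29 in untreated wild type and at 6.46 and 6.39 with TNFα. It rose 17.4-fold on this scale (4.12, SE 0.33, limma adjusted p = 1.42e-05), with no overlap. Chac1, which breaks down glutathione, rose from 3.40 and 3.14 to 7.14 and 7.02 (3.81, SE 0.71, adjusted p = 0.00255). Sesn2, a stress-induced sensor of leucine that restrains mTORC1, rose from 3.01 and 2.69 to 5.35 and 5.43 (2.54, SE 0.60, adjusted p = 0.00849), a call lost without wild-type replicate 2 (0.0516) or either treated replicate (0.0532 and 0.0577). The pseudokinase gene Trib3 was at 4.44 and 4.0 without TNFα and at 5.77 and 5.82 with it, and this difference of 1.58 did not pass (adjusted p = 0.1002). Ppp1r15a, which encodes GADD34, the subunit that directs phosphatase to eIF2α, differed by -0.30. The lipoprotein receptor gene Vldlr, known as an ATF4 target, was at 1.10 and 0.67 without TNFα and listed at 0 in both treated libraries (-0.89, adjusted p = 0.322). Trib3 and Vldlr had SDs of 1.89 and 1.85 in treated Tnfrsf1α-/-, which shares the estimate of the spread, against at most 0.31 in wild type.

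Of the amino acid genes, Shmt2, Phgdh and Asns had the smallest p. Phgdh, which encodes the first enzyme of serine synthesis, was at 7.12 and 7.03 without TNFα and at 10.78 and 11.29 with it (3.96, SE 0.22, limma adjusted p = 9.46e-07). Shmt2, the mitochondrial enzyme that turns serine into glycine and a one-carbon unit, rose from 7.54 and 7.23 to 11.81 and 12.33 (4.68, SE 0.24, adjusted p = 4.65e-07). Asns, asparagine synthetase, rose from 3.89 and 3.69 to 6.92 in both treated libraries (3.13, SE 0.61, adjusted p = 0.00327). These 3 calls stood without each library and under both other scalings. Psat1, the second enzyme of serine synthesis, rose by 3.06 (adjusted p = 0.00881), Slc3a2, the heavy chain of amino acid transporters, by 2.28 (0.0144) and Mthfd2, a mitochondrial folate enzyme, by 1.54 (0.0385). Each of those 3 calls was lost without wild-type replicate 2 (adjusted p = 0.0686, 0.0846 and 0.154), treated replicate 1 (0.0588, 0.0716 and 0.133) or treated replicate 2 (0.056, 0.0838 and 0.151), that of Mthfd2 also without other libraries and under both other scalings, and that of Slc3a2 after quantile normalization. Psph, the last enzyme of serine synthesis, differed by 1.17 and Slc7a5, the light chain that carries leucine, by 1.51, and neither passed (adjusted p = 0.103 and 0.157). In neither gene did the wild-type groups overlap. Their SDs in treated Tnfrsf1α-/-, which shares the estimate of the spread, were 1.45 and 2.24, against at most 0.13 and 0.53 in wild type. Slc7a1, a carrier of arginine and lysine, differed by 0.12. The glutamine carrier gene Slc1a5 fell from 4.56 and 4.21 to 3.45 and 3.43 (-0.94, adjusted p = 0.0337), a call lost without either wild-type replicate (0.135 and 0.055) or either treated replicate (0.12 and 0.125), and without most other single libraries.

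Among the chaperone genes, Hspa5, which encodes BiP, the main ER chaperone of the Hsp70 kind, was at 8.41 and 8.31 without TNFα and at 8.41 and 8.43 with it (0.06, SE 0.39, limma adjusted p = 0.92). Hyou1, a large ER chaperone of the same superfamily and an exchange factor of BiP, rose from 6.12 and 5.48 to 11.47 and 10.98, or 43.1-fold (5.43, SE 0.33, adjusted p = 1.61e-06). Dnajc3, a co-chaperone that also inhibits PERK, moved the other way, from 5.96 and 6.32 to 3.47 and 3.41 (-2.70, SE 0.48, adjusted p = 0.00204). Dnajb9, a small BiP co-chaperone, rose from 2.70 and 2.42 to 3.69 and 3.48 (1.02, SE 0.20, adjusted p = 0.00348), not after quantile normalization. The groups of these 3 genes did not overlap, and their calls stood without each library. Hsp90b1, the Hsp90 of the ER, rose by 1.35 (adjusted p = 0.00516), a call lost without treated replicate 1 (0.0598) and after quantile normalization. Sdf2l1, part of a BiP complex, rose by 0.89 (0.00904), lost without treated replicate 2 (0.0614) and under both other scalings. The disulphide isomerase gene Pdia6 fell by 0.96 (adjusted p = 0.0086), a call lost without treated replicate 2 (0.053).

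Other chaperone genes fell with TNFα in wild type. The lectin chaperone gene Calr fell by 0.90 (limma adjusted p = 0.0286), and Manf, a secreted ER stress factor, fell by 1.09 (0.0323). Both calls were lost without wild-type replicate 2 (0.0853 and 0.177), treated replicate 1 (0.125 and 0.156) or treated replicate 2 (0.107 and 0.0932), that of Calr also without wild-type replicate 1 (0.0845) and that of Manf without an untreated library of either knockout label. Canx, the membrane-bound lectin chaperone, Pdia3, its disulphide isomerase partner, Pdia4, Dnajb11 and Creld2 gave differences of -0.39, -0.69, -0.01, 0.41 and -0.13 and did not pass. Among the ERAD genes, Herpud1, a scaffold of the degradation complex, rose by 1.62 (adjusted p = 0.0315), a call lost without wild-type replicate 2 (0.147) or treated replicate 1 or 2 (0.106 and 0.145), without most other single libraries and under both other scalings. The mannosidase-like Edem1 (0.80), the ubiquitin ligase gene Syvn1 (0.27) and its partner Sel1l (-0.65) did not pass.

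**Figure D3:**
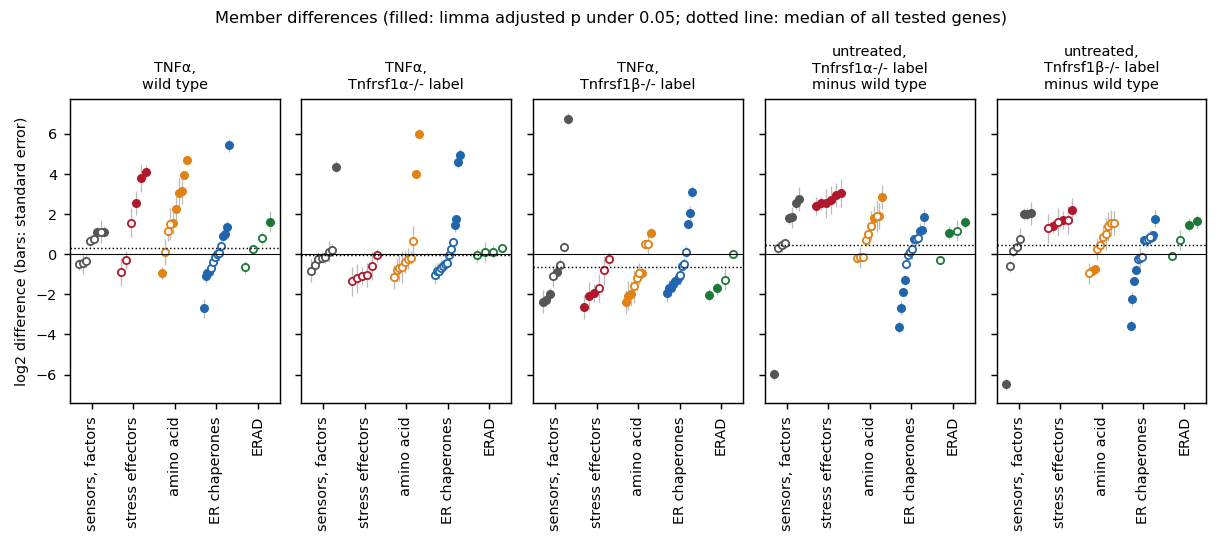
Log2 difference of each member (1 point a gene, bars: standard error) in 5 comparisons, by role, with filled points for limma adjusted p under 0.05 and a dotted line at the median of all 11860 tested genes. Amino acid genes and effectors lie mostly above that line in TNFα-treated wild type, and all 6 effectors are called higher in untreated Tnfrsf1α-/-.

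Under the label Tnfrsf1α-/-, a small set rose with TNFα. Among the 42 members 7 rose and 0 fell by limma (16.7% and 0%), where 9.81% of all tested genes rose and 7.5% fell, and the medians were -0.21 over members and -0.02 over all genes. Shmt2 was at 7.13 and 7.22 untreated and at 12.98 and 13.39 treated (6.01, SE 0.24, limma adjusted p = 1.8e-07), and Phgdh rose from 6.82 and 7.06 to 10.74 and 11.13 (4.0, SE 0.22, adjusted p = 1.65e-06). Hsp90b1 rose from 9.18 and 9.0 to 14.25 and 13.85 (4.96, SE 0.29, adjusted p = 2.38e-06) and Hyou1 from 5.91 and 5.95 to 10.26 and 10.83 (4.62, SE 0.33, adjusted p = 1.01e-05). Treated and untreated libraries were far apart in all 4 genes, and both treated replicates were high. Cebpb, which encodes a partner of ATF4 and CHOP that also acts in the acute-phase response of the liver, rose from 5.2 and 5.43 to 9.64 and 9.70 (4.35, SE 0.27, adjusted p = 4.44e-06), and Sdf2l1 rose from 3.94 and 4.44 to 5.79 and 6.06 (1.73, adjusted p = 5.98e-04). Manf rose by 1.48 (adjusted p = 0.0235), a call lost without untreated replicate 1 (0.121) or 2 (0.125) or a treated wild-type replicate (0.0515 for either). The other 35 members did not pass, and none of the effectors did.

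The treated Tnfrsf1α-/- replicates disagreed over many of them. Between these replicates 20 of the 42 members were more than 1 apart and 9 more than 2 apart, and 19 of the 20 were lower in replicate 2. Of the 11860 tested genes 1231 were more than 2 apart. Over all tested genes, neither those more than 1 apart nor the direction was counted. The median of replicate 2 minus replicate 1 was -2.48 for the effectors, -2.0 for the amino acid genes and -0.27 for the chaperone genes. Asns was at 6.71 in replicate 1, as in the untreated libraries (6.72 and 6.58), and at 4.31 in replicate 2. Chac1 was at 6.06 and 3.45, Trib3 at 6.74 and 4.07, and Slc7a5 at 7.96 and 4.8. Without replicate 1 there were 26 calls, 7 higher and 19 lower, among them 5 of 6 effectors and 7 of 10 amino acid genes lower, where 28.5% of all tested genes were then called higher and 30.5% lower. In that setting Asns fell by 2.34 (limma adjusted p = 2.67e-05) and Trib3 by 2.69. Without replicate 2 there were 7 calls, all higher, where 8.8% of all tested genes were called higher and 6.59% lower. Quantile normalization of all libraries gave 6 higher and 14 lower, 7 of the latter chaperone genes, where 11.1% and 20.8% of all tested genes were called.

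**Figure D4:**
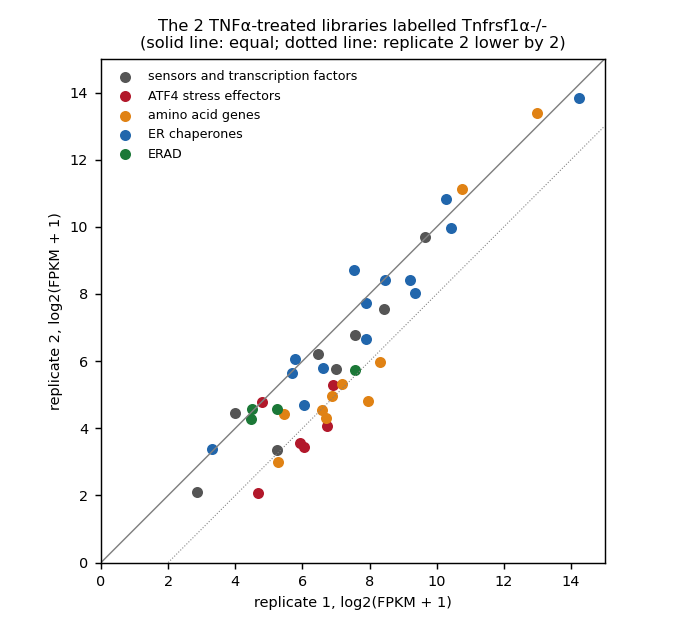
Level of each member (log2(FPKM + 1)) in replicate 2 against replicate 1 of TNFα-treated Tnfrsf1α-/- (solid line: equal values, dotted line: replicate 2 lower by 2). Effectors and amino acid genes lie towards the dotted line (medians of -2.48 and -2.0), and chaperone genes nearer to the solid one (-0.27).

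Under the label Tnfrsf1β-/-, the members moved mostly down with TNFα, as did the genes at large. With limma 5 members rose and 20 fell (11.9% and 47.6%), where 17.6% of all tested genes rose and 42.9% fell, and the median was -1.16 over members and -0.66 over all genes. By role 7 of 14 chaperone genes, 4 of 10 amino acid genes, 4 of 8 sensors and factors, 3 of 6 effectors and 2 of 4 ERAD genes fell. Median-ratio scaling left 9 higher and 10 lower, where 27.7% and 26.8% of all tested genes were called. Quantile normalization gave 4 higher and 22 lower, where the shares were 24.4% and 30%. Without treated replicate 2 fewer members were called, as were fewer of all tested genes. Of the 25 calls 15 stood without each library.

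All of the sensor genes were lower. Ern1 fell from 3.55 and 3.46 to 1.31 and 1.09 (-2.31, SE 0.29, limma adjusted p = 4.39e-04), Eif2ak3 from 3.27 and 3.22 to 1.36 and 1.16 (-1.99, SE 0.30, adjusted p = 8.75e-04) and Atf6 from 4.33 and 4.47 to 2.34 and 1.73 (-2.37, SE 0.58, adjusted p = 0.00762), the last lost without treated replicate 2 (0.0582). Atf4 fell by 0.88 (adjusted p = 0.0442), a call lost without treated replicate 2 (0.291), either untreated replicate (0.13 and 0.139) or any of 6 libraries of the wild-type and untreated Tnfrsf1α-/- groups. Sel1l fell from 4.98 and 5.01 to 3.20 and 2.72 (-2.04, SE 0.32, adjusted p = 0.00102) and Edem1 from 4.79 and 4.84 to 3.34 and 2.91 (-1.69, SE 0.33, adjusted p = 0.00251). Hspa5 fell from 9.19 and 9.2 to 7.92 and 7.14 (-1.67, SE 0.39, adjusted p = 0.00643), lost without treated replicate 2 (0.0555). Pdia4 (-1.48), Pdia3 (-1.67), Pdia6 (-1.32), Canx (-1.96) and Dnajb9 (-1.13) fell as well, and Hyou1 fell by 1.31 (adjusted p = 0.00818), lost without treated replicate 2 (0.0661). After median-ratio scaling Pdia3, Pdia6, Dnajb9, Hspa5 and Hyou1 were no longer called.

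Sesn2 was at 5.08 and 5.06 untreated and at 2.54 and 2.38 with TNFα (-2.61, SE 0.60, limma adjusted p = 0.00559), and the groups were far apart. Asns went from 5.33 and 5.36 to 3.15 and 2.78 (-2.38, SE 0.61, adjusted p = 0.00929) and Ppp1r15a from 6.47 and 6.50 to 4.87 and 4.23 (-1.94, SE 0.45, adjusted p = 0.00594), both lost without treated replicate 2 (0.0603 and 0.0507). Chac1, Psat1, Slc7a1 and Slc1a5 fell by 2.08, 2.07, 1.96 and 0.94, and these 4 calls were lost without treated replicate 2 (0.184, 0.24, 0.155 and 0.124) or either untreated replicate. The 5 genes that rose included Cebpb, from 5.01 and 4.65 to 11.45 and 11.73 (6.76, SE 0.27, adjusted p = 5.88e-07), and Hsp90b1, from 9.14 and 9.2 to 12.56 and 12.01 (3.11, SE 0.29, adjusted p = 1.11e-04). Sdf2l1 (1.49), Manf (2.07) and Shmt2 (1.06) completed them. Phgdh, at 6.33 and 6.30 without and 6.89 and 6.74 with TNFα, did not pass (0.50, adjusted p = 0.08).

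Whether the response to TNFα differed between genotypes was tested directly, as the knockout response minus the wild-type response. For Tnfrsf1α-/- 4 members had a higher and 8 a lower response than wild type, where 12.8% of all tested genes had a higher and 22% a lower one. For Tnfrsf1β-/- 3 had a higher and 23 a lower response, where the shares were 17.3% and 47.3%. Both use the wild-type libraries, so these sets of values are not independent. Ddit4, which rose by 4.12 in wild type, differed by -0.06 under the label Tnfrsf1α-/- and by -0.24 under Tnfrsf1β-/-, giving differences in response of -4.18 (SE 0.47, limma adjusted p = 2.17e-04) and -4.36 (SE 0.47, adjusted p = 1.02e-04). Asns gave -4.27 (SE 0.86, adjusted p = 0.00619) and -5.51 (SE 0.86, adjusted p = 7.51e-04), and Chac1 gave -5.02 (adjusted p = 0.00575) and -5.89 (0.00112). These 3 genes did not start from a common level, and their untreated means were higher under both labels than in wild type. The means were 4.84 and 3.69 against 2.31 for Ddit4, 6.65 and 5.34 against 3.79 for Asns, and 5.96 and 4.99 against 3.27 for Chac1. For Hyou1, Phgdh and Shmt2 the picture was split. Their response under Tnfrsf1β-/- was lower than in wild type, with differences of -6.74, -3.46 and -3.62 (adjusted p = 4.83e-06, 3.12e-05 and 3.67e-05). Under the label Tnfrsf1α-/- that of Hyou1 (-0.81, adjusted p = 0.196) and Phgdh (0.04, 0.923) did not pass, and that of Shmt2 was higher by 1.33 (0.0166), lost without treated wild-type replicate 1 (0.0631) or either untreated Tnfrsf1α-/- replicate (0.0627 and 0.0501) and after quantile normalization (0.62, adjusted p = 0.151).

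Hsp90b1 had a higher response under both labels (3.61 and 1.77, limma adjusted p = 2.12e-04 and 0.00521, the second not after quantile normalization), as had Manf (2.56 and 3.16, adjusted p = 0.00506 and 7.63e-04) and Cebpb (4.85 and 7.25, adjusted p = 1.97e-05 and 8.84e-07). All 3 were low in the untreated libraries with a knockout label, as described next. For Tnfrsf1α-/- more members were called without its treated replicate 1 and fewer without treated wild-type replicate 1, and all tested genes moved likewise. Median-ratio scaling gave 11 higher and 6 lower for Tnfrsf1α-/- and 10 and 14 for Tnfrsf1β-/-. Of all tested genes 17.4% and 15.8%, and 28.7% and 28.4%, were then called. Quantile normalization gave 4 and 12, and 3 and 21, where the shares were 15.5% and 16.9%, and 25.8% and 28.5%.

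Without TNFα, libraries with a knockout label already differed from wild type in these genes. Under the label Tnfrsf1α-/- 19 members were higher and 5 lower (45.2% and 11.9%), where 36.7% of all tested genes were higher and 17% lower, with medians of 1.04 and 0.48. Under Tnfrsf1β-/- 12 were higher and 7 lower (28.6% and 16.7%), where the shares were 36.9% and 17.5%, with medians of 0.77 and 0.47. Both comparisons share the untreated wild-type libraries. Of the stress effectors 6 of 6 were higher under the label Tnfrsf1α-/- (median 2.61), also under both other scalings, and 3 of 6 under Tnfrsf1β-/- (median 1.66). Chaperone genes were split, with 4 higher and 4 lower under each label. Median-ratio scaling gave 2 higher and 5 lower under the label Tnfrsf1α-/- and 1 and 6 under Tnfrsf1β-/-, and quantile normalization gave 7 and 4 and 7 and 3. Of the amino acid genes 3 were higher and 0 lower under the label Tnfrsf1α-/-, and 0 were higher and 2 lower under Tnfrsf1β-/-. These counts were 1 and 1 and 0 and 3 with median-ratio scaling, and 5 and 0 and 1 and 0 after quantile normalization. Median-ratio scaling changed the 2 overall splits to 13 higher and 8 lower and to 9 and 11. Of all tested genes 26.3% and 25.3%, and 26.5% and 25.1%, were then called. Quantile normalization changed them to 27 and 6 and to 17 and 4, with shares of 27.9% and 23.6%, and 27.6% and 23.5%. For Tnfrsf1β-/- fewer members were called without wild-type replicate 2 or either of its own replicates. More were called without either treated Tnfrsf1α-/- replicate. All tested genes moved likewise in these settings.

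Ddit4 was at 2.32 and 2.29 in untreated wild type, 4.83 and 4.86 under the label Tnfrsf1α-/- and 3.66 and 3.72 under Tnfrsf1β-/- (2.54 and 1.39, limma adjusted p = 6.22e-04 and 0.00823). Ppp1r15a was at 4.89 and 4.67, against 7.24 and 7.12 and 6.47 and 6.50 (2.40 and 1.70, adjusted p = 0.00265 and 0.0122). Vldlr was at 1.10 and 0.67, against 3.91 and 4.0 and 2.46 and 2.53 (3.07, adjusted p = 0.0063, and 1.61, adjusted p = 0.0813). In each of these genes the order was wild type lowest and Tnfrsf1α-/- highest, with no overlap. Sesn2 was higher by 2.95 and 2.22 (adjusted p = 0.00379 and 0.0133). Under the label Tnfrsf1α-/- Chac1 was higher by 2.69 (adjusted p = 0.0119), lost without wild-type replicate 2 (0.0672) or its replicate 2 (0.0619), and Trib3 by 2.54 (0.0162), lost without wild-type replicate 2 (0.0919) or either own replicate (0.0688 and 0.0677). Under Tnfrsf1β-/- the calls of Sesn2 and Ppp1r15a were lost without wild-type replicate 2 (0.0772 and 0.0707), own replicate 1 (0.06 and 0.0549) or own replicate 2 (0.0594 and 0.0589).

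Asns was at 3.89 and 3.69 in untreated wild type and at 6.72 and 6.58 under the label Tnfrsf1α-/- (2.86, SE 0.61, limma adjusted p = 0.00461), with 5.33 and 5.36 under Tnfrsf1β-/- (1.56, adjusted p = 0.0578). Slc3a2 (1.80, adjusted p = 0.0331) and Slc7a1 (1.93, 0.0333) were the other amino acid genes called under the label Tnfrsf1α-/-, and both were lost without wild-type replicate 2 (0.163 and 0.194) and most other single libraries. Shmt2 and Phgdh were lower under Tnfrsf1β-/- (-0.85 and -0.76, adjusted p = 0.0153 and 0.0184), calls lost without wild-type replicate 1 (0.0726 and 0.0612), without either own replicate and after quantile normalization. Phgdh was also lost without wild-type replicate 2 (0.0577).

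Among sensors, Ern1 was higher by 2.53 and 2.01 (limma adjusted p = 3.56e-04 and 8.97e-04) and Eif2ak3 by 1.80 and 2.01 (0.00154 and 0.00102). Atf6 was higher by 2.75 and 2.04 (0.00448 and 0.017), under Tnfrsf1β-/- not without wild-type replicate 2 (0.125) or an own replicate (0.063 and 0.0788). Atf4 did not pass under either label (0.44 and 0.18, adjusted p = 0.294 and 0.685). Ddit3 was at 6.25 and 6.29 under the label Tnfrsf1α-/- against 3.89 and 4.99 in wild type (1.83, adjusted p = 0.0161), lost without wild-type replicate 1 (0.0986) or either own replicate (0.0683 and 0.0693), and was at 5.11 and 5.33 under Tnfrsf1β-/- (0.78, adjusted p = 0.231). Xbp1 gave 0.32 and 0.38 and did not pass. Cebpb was the member with the largest difference, 11.35 and 11.26 in wild type against 5.2 and 5.43 and 5.01 and 4.65 (-5.99 and -6.48, adjusted p = 1.12e-06 and 7.15e-07).

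Among the chaperone genes some were higher and others lower than in wild type. Hsp90b1 was at 12.74 and 12.72 in wild type, 9.18 and 9.0 under the label Tnfrsf1α-/- and 9.14 and 9.2 under Tnfrsf1β-/- (-3.64 and -3.56, limma adjusted p = 5.02e-05 and 5.63e-05). Manf was at 9.06 and 9.62, against 6.70 and 6.57 and 7.13 and 7.11 (-2.71 and -2.22, adjusted p = 5.79e-04 and 0.00126). Sdf2l1 was lower (-1.88 and -1.33, adjusted p = 3.33e-04 and 0.00134). Creld2, a small disulphide isomerase, was lower too, with -1.27 (0.00372) and -0.78 (0.0315, lost without wild-type replicate 2 at 0.186 or either own replicate at 0.0865 and 0.146). On the other side stood Canx (1.87 and 1.78, adjusted p = 0.00527 and 0.00661, the second lost without wild-type replicate 2 at 0.0559) and Dnajb9 (1.22 and 0.96, 0.00151 and 0.00452, the second not under either other scaling). Hspa5 was at 8.41 and 8.31 in wild type, 9.57 and 9.50 under the label Tnfrsf1α-/- and 9.19 and 9.2 under Tnfrsf1β-/- (1.17 and 0.83, adjusted p = 0.0335 and 0.105), the first lost without either wild-type replicate (0.081 and 0.13), either own replicate (0.125 and 0.102) or a library of some other groups, and after median-ratio scaling. Thus Hspa5, Hsp90b1 and Creld2, whose promoters printed above share the ER stress element, did not share a direction. Sel1l was higher by 1.60 and 1.64 (0.00346 and 0.00314). Pdia6 (0.75 and 0.70) and Edem1 (1.07 and 1.47) were higher under both labels and Pdia4 (0.86) under Tnfrsf1β-/-. Except for Edem1 under Tnfrsf1β-/-, these calls were lost without wild-type replicate 2 (Pdia6 at 0.0831 and 0.102, Edem1 at 0.115, Pdia4 at 0.227) or either own replicate.

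Between treated groups, the Tnfrsf1β-/- libraries had lower amino acid genes than wild type. With limma 2 members were higher and 20 lower, where 14.7% of all tested genes were higher and 36.3% lower, and the median was -1.03 over members and -0.41 over all genes. Of the amino acid genes 0 of 10 were higher and 7 lower (median -2.43), against 1 higher and 5 lower among 14 chaperone genes (median -0.56). The chaperone counts were 4 higher and 3 lower with median-ratio scaling (median 0.15) and 3 and 2 after quantile normalization (median 0.03). Shmt2 differed by -4.48 (limma adjusted p = 6.38e-07), Phgdh by -4.22 (5.92e-07), Asns by -3.95 (8.39e-04) and Psat1 by -3.73 (0.00303). Among the others, Hyou1 differed by -6.03 (7.36e-07), Chac1 by -4.17 (0.00141), Ddit4 by -2.98 (1.28e-04) and Hsp90b1 by -1.79 (0.00106). Those 8 calls stood without each library and under both other scalings. Cebpb was higher by 0.78 (adjusted p = 0.0425), lost without treated wild-type replicate 1 (0.276) or either Tnfrsf1β-/- treated replicate (0.0649 and 0.186). Median-ratio scaling gave 7 higher and 13 lower and quantile normalization 6 and 11, with 6 and 5 amino acid genes lower and 1 higher in each. Of all tested genes 25.8% and 21.4%, and 23.9% and 21.2%, were then higher and lower. Without treated wild-type replicate 2 fewer members were called, as were fewer of all tested genes.

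Treated Tnfrsf1α-/- against treated wild type gave 10 members higher and 6 lower by limma, where 22.7% of all tested genes were higher and 22.4% lower. Median-ratio scaling gave 10 higher and 7 lower, where the shares were 22.9% and 22.6%. Quantile normalization gave 11 and 2, where the shares were 20.3% and 21.5%. Ern1 was at 4.0 and 4.46 against 2.39 and 2.16 (1.95, SE 0.29, limma adjusted p = 8.71e-04), and Sel1l at 5.23 and 4.57 against 2.74 and 2.69 (2.19, SE 0.32, adjusted p = 7.67e-04). Ddit4 was at 4.78 in both against 6.46 and 6.39 (-1.64, SE 0.33, adjusted p = 0.00445), and Pdia6 at 8.47 and 8.43 against 7.36 and 7.28 (1.14, adjusted p = 0.00403). These 4 calls were the ones that stood under every alternative run. Without treated Tnfrsf1α-/- replicate 2 more members were called, and without either treated wild-type replicate fewer, and all tested genes moved likewise. A fit of these 2 groups alone gave 4 calls, where 17.8% of all tested genes were called. In the setting without replicate 2, Slc7a5 and Trib3 were higher than in wild type (1.35 and 0.95), whereas without replicate 1 they were lower (-1.81 and -1.73, adjusted p = 0.0019 and 0.0046).

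Some members were set apart in certain sets of the 12 libraries. Phgdh, Shmt2 and Hyou1 were higher by 3.62, 4.08 and 4.14 in the lowest of the 4 treated wild-type and Tnfrsf1α-/- libraries than in the highest untreated wild-type or treated Tnfrsf1β-/- library, and no other member was separated by more than 2. Cebpb, Hsp90b1, Sdf2l1, Manf and Shmt2 were lower in all 4 untreated knockout-labelled libraries than in the other 8. The gaps were 4.2, 2.81, 0.97, 0.40 and 0.01. Eif2ak3, Pdia3, Pdia4, Pdia6 and Canx were higher in all 4, by smaller gaps of 0.15, 0.20, 0.40, 0.50 and 0.10. Those 4 libraries are also the ones with the lowest total FPKM. These patterns were read from the values and are given without a test. How many of all tested genes were separated in the same ways was not counted. Whether the patterns are particular to these members is therefore not known. Between untreated wild type and untreated Tnfrsf1α-/- or Tnfrsf1β-/-, limma called 53.7% and 54.4% of all tested genes.

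**Figure D5:**
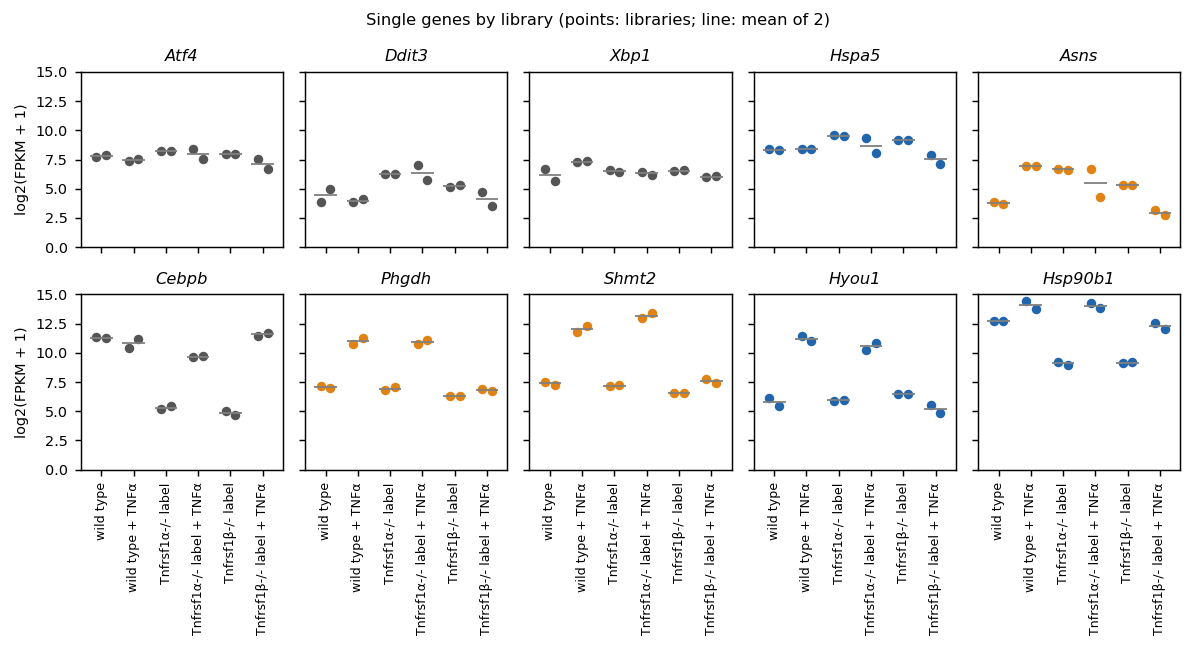
Level (log2(FPKM + 1)) of 10 members in each library, with a line at the mean of the 2 libraries. Atf4 lies between 6.69 and 8.44 in all libraries, whereas Asns, Phgdh, Shmt2 and Hyou1 are higher in treated than in untreated wild type (by 3.13, 3.96, 4.68 and 5.43) and Cebpb and Hsp90b1 are low in both untreated groups with a knockout label.

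Other genes of the same pathways were read from the same table. Of 24 tested further genes of the eIF2α and ATF4 branch, 14 rose and 2 fell with TNFα in wild type (median 1.30), 3 rose and 3 fell under the label Tnfrsf1α-/-, and 2 rose and 15 fell under Tnfrsf1β-/- (median -1.47). Of the 24 this is 58.3% and 8.33%, 12.5% and 12.5%, and 8.33% and 62.5%, where 31.9% and 15.3%, 9.81% and 7.5%, and 17.6% and 42.9% of all tested genes rose and fell. Of 35 tested further genes of ER folding and quality control, 8 rose and 8 fell in wild type (median 0.07), 4 rose and 0 fell under the label Tnfrsf1α-/-, and 7 rose and 15 fell under Tnfrsf1β-/- (median -0.54). Of the 35 this is 22.9% and 22.9%, 11.4% and 0%, and 20% and 42.9%, so the share that rose was below that of all genes in wild type, and both shares were near it under Tnfrsf1β-/-. Aldh18a1, which makes the precursor of proline, was at 4.19 and 3.55 in untreated wild type, 11.14 and 11.21 with TNFα, 10.52 and 10.55 in treated Tnfrsf1α-/- and 3.74 and 3.05 in treated Tnfrsf1β-/-. Kdelr2, a receptor that returns escaped ER proteins, had the same order, with 6.92 and 6.30, 12.19 and 12.14, 11.88 and 11.99, and 6.43 and 6.26. Its paralogue Kdelr3 went from 7.43 and 7.33 in untreated wild type to 0.23 and 0 with TNFα, while the other 10 libraries held 5.83 to 7.43. Gdf15, a secreted stress hormone raised by ATF4 and CHOP, was at 6.26 and 6.56 in treated wild type and at most at 0.83 elsewhere. Without TNFα 16 of the 24 eIF2α and ATF4 genes were higher and 2 lower under the label Tnfrsf1α-/- (median 1.56), and 12 higher and 2 lower under Tnfrsf1β-/- (median 0.98), where 36.7% and 36.9% of all tested genes were higher and 17% and 17.5% lower.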

How the data were processed

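Total RNA had been extracted with Trizol and made into libraries from 1 ug with an Illumina TruSeq kit, per the labels' protocols. For the aligner, quantification tool, genome build and strand setting, the sources used here give nothing. The authors deposited 1 table with 22730 lines and a column for each of the 12 libraries. The authors deposited FPKM on what was taken to be a log2 scale, log2(FPKM + 1). The table names no unit, so that scale is an inference from the range and sums of its values. Lines without a symbol (346) were left out, columns were matched through the sample descriptions, and 0 columns were not used.

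Lines with a mean FPKM of at least 1 were tested with limma 3.58.1 (R 4.3.3). The pseudocount of 1 makes changes of low genes look smaller than they are. All 12 libraries entered 1 fit with 6 group means, an intensity trend and no block, and 9 contrasts were adjusted by Benjamini-Hochberg over the 11860 lines, two-sided, with a threshold of 0.05. Each adjusted p is from this limma fit unless a left-out library or another scaling is named. The fit was tested on simulated data.

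The members, their roles, the 2 further gene lists and the marker lists were chosen with earlier results of these data known. Any member may be named. Full statistics are given mainly for up to 3 members a role with the smallest p, with Atf4, Ddit3, Xbp1, Hspa5 and Asns always followed, and other members were named in addition to these. Genes of the further lists are named from the 3 smallest p of a contrast. Alternatives were other pseudocounts (0.1 and 4), no filter or a mean FPKM of 5, median-ratio scaling, quantile normalization, the compared groups alone, groups left out, a replicate block and each library left out. Protein sequences were not used here.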

Additional observations from a re-analysis of the deposited data

Results flagged for a closer look

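For 38 values the response of a member to TNFα differed between a knockout label and wild type by the test of the difference itself (limma adjusted p under 0.05). These are 12 of 42 members for Tnfrsf1α-/- and 26 of 42 for Tnfrsf1β-/-, or 28.6% and 61.9%, where 34.8% and 64.5% of all tested genes were called, so the members' shares were near or below the background. All rest on the TNFα-treated wild-type libraries, which also carried the hepatocyte markers, and those for Tnfrsf1α-/- on treated replicates that disagreed. The part of either in these values was not tested.

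Under the label Tnfrsf1α-/- the response was lower for the effector genes Chac1 (-5.02), Ddit4 (-4.18) and Sesn2 (-3.59) and for the amino acid genes Asns (-4.27) and Slc3a2 (-3.06). It was also lower for the factor genes Atf5 (-1.24) and Xbp1 (-1.31) and for the co-chaperone gene Dnajb9 (-1.46). It was higher for Cebpb (4.85), Hsp90b1 (3.61), Manf (2.56) and Shmt2 (1.33). Without treated wild-type replicate 1 the values of Atf5, Sesn2, Shmt2, Slc3a2 and Xbp1 no longer passed (limma adjusted p = 0.0673, 0.0535, 0.0631, 0.0812 and 0.0907). Under both other scalings 9 of the 12 were still called: Atf5 and Xbp1 were lost with median-ratio scaling and Shmt2 after quantile normalization.

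Under Tnfrsf1β-/- the response was lower for Hyou1 (-6.74), Chac1 (-5.89), Sesn2 (-5.15), Ddit4 (-4.36) and Ppp1r15a (-1.63). Among amino acid genes it was lower for Asns (-5.51), Psat1 (-5.12), Shmt2 (-3.62), Slc3a2 (-3.47), Phgdh (-3.46), Slc7a5 (-3.11) and Mthfd2 (-2.49). Among sensors and factors it was lower for Atf6 (-3.49), Ern1 (-3.09), Eif2ak3 (-2.63) and Xbp1 (-1.66). Chaperone genes with a lower response were Dnajb9 (-2.16), Hspa5 (-1.72), Canx (-1.56) and Pdia4 (-1.47), and ERAD genes were Herpud1 (-2.89), Edem1 (-2.49) and Sel1l (-1.39). It was higher for Cebpb (7.25), Manf (3.16) and Hsp90b1 (1.77). Without untreated wild-type replicate 2 the values of Canx, Hspa5, Mthfd2, Pdia4, Ppp1r15a, Sel1l and Slc7a5 no longer passed (limma adjusted p = 0.136, 0.0661, 0.0555, 0.055, 0.123, 0.0719 and 0.123). Under both other scalings 15 of the 26 were still called. Canx, Herpud1, Hspa5, Pdia4 and Xbp1 were lost with median-ratio scaling, Dnajb9 and Hsp90b1 after quantile normalization, and Mthfd2, Ppp1r15a, Sel1l and Slc7a5 under either.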

How the results depend on the processing

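With each library left out in turn (a lone library is then assumed to vary like the other groups), members called ranged from 10 to 28 for TNFα in wild type, 6 to 26 under the label Tnfrsf1α-/- and 15 to 36 under Tnfrsf1β-/-. The ranges were 7 to 25 for the difference in response of Tnfrsf1α-/-, 11 to 31 for untreated Tnfrsf1β-/- against wild type, and 9 to 28 and 14 to 30 for treated Tnfrsf1α-/- and Tnfrsf1β-/-. The share of all tested genes called moved in these settings too. Quantile normalization gave 20 calls for TNFα under the label Tnfrsf1α-/-, where 31.9% of all tested genes were called. The compared groups alone gave 29 for untreated Tnfrsf1β-/- and 4 for treated Tnfrsf1α-/-, where the shares were 58.1% and 17.8%. Leaving out both treated Tnfrsf1α-/- libraries gave 31 for untreated Tnfrsf1β-/-, where the share was 69%. Replicate differences correlated between pairs of groups at -0.17 to 0.24, over 0.1 in 9 of 15 pairs and not in 6, so the numbers were not taken as pairing the libraries. A replicate block gave 29 in place of 26 for the difference in response of Tnfrsf1β-/- and 16 in place of 12 for that of Tnfrsf1α-/-. Of all tested genes 66.6% in place of 64.5%, and 38.5% in place of 34.8%, were then called. No count of calls moved by more than 1.5 times with the block. The change of the chaperone minus amino acid gap with TNFα was -1.89 in wild type, -0.043 under the label Tnfrsf1α-/- and 0.48 under Tnfrsf1β-/- with means in place of medians. Under the label Tnfrsf1α-/- it ran from -0.12 to 2.05 with libraries left out. Under Tnfrsf1β-/- it ran from -0.0257 to 0.0432, and was -0.0594 with a pseudocount of 4 and -1.19 after quantile normalization. Quantile normalization gave gap differences of 0.24 (response of Tnfrsf1β-/-), -0.40 and 1.20 (untreated Tnfrsf1α-/- and Tnfrsf1β-/- against wild type) and 1.44 (treated Tnfrsf1β-/-), and means gave 2.37, -1.33 and -0.58 for the first 3. A pseudocount of 4 gave 1.60 for treated Tnfrsf1β-/-. Changes of sign were counted only where either fit made a call. With median-ratio scaling the genes were Syvn1 with TNFα under Tnfrsf1β-/- (0.76) and, for the difference in response of that label, Pdia6 (0.92) and Syvn1 (0.96). With quantile normalization they were Calr with TNFα under the label Tnfrsf1α-/- (-1.97), Pdia6 in its difference in response (-1.02), Calr, Phgdh and Shmt2 in untreated Tnfrsf1α-/- (1.33, 0.78 and 0.82) and Calr in untreated Tnfrsf1β-/- (1.65). In treated Tnfrsf1α-/- the differences of Sesn2, Slc7a5 and Trib3 ran from -1.82, -1.81 and -1.73 without treated replicate 1 to 0.54, 1.35 and 0.95 without replicate 2. The cause of these changes was not tested. Depth is unknown, so what it limits cannot be given.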
